A study of Mus musculus with 6 samples.

Results

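The T cell receptor complex genes are *Cd3d*, *Cd3e*, *Cd3g* and *Cd247*, which encode the CD3 signaling chains, *Cd4*, *Cd8a* and *Cd8b1*, which encode the coreceptors, *Lck* and *Zap70*, which encode the proximal kinases, and *Cd28*, which encodes the main costimulatory receptor. These 10 genes were taken by gene symbol from the 15280 genes of the expression table, and all 10 were present. RNA-Seq libraries came from 3 parous female BK5.ATF3 mice, in which the keratin 5 promoter drives an ATF3 transgene in basal epithelial cells. From each mouse there was 1 mammary tumor and 1 piece of adjacent normal mammary gland, so n = 3 for each tissue. Mammary tumors arose at 6 to 12 months of age, after the females had raised 1 litter, and were taken at a length of 1.5 cm. No library came from a mouse without the transgene, so tumor and gland differ in tissue and not in genotype. Gland libraries are called M11035, M11640 and M9232, and tumor libraries of these mice, in this order, T11035, T11640 and T9232. Expression was given in CPM, the fragments of a gene scaled to edgeR's effective library size. Libraries held from 4750989 (M11035) to 7806908 (T11640) fragments in the genes of the table.

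The T cell receptor itself is a pair of chains that recognise a peptide on an MHC molecule but have no signaling tail of their own. The CD3 chains carry the signal into the cell. LCK, which is held at the tails of the coreceptors CD4 and CD8, phosphorylates the CD3 chains, and ZAP-70 then docks on them and passes the signal to adaptor proteins. CD4 reads MHC class II and marks helper and regulatory T cells, whereas CD8 reads MHC class I and marks cytotoxic T cells. In the mammary gland, T cells lie in the stroma, in the epithelium and in the lymph nodes within the fat pad. The genes of the receptor's own α and β chains were not analysed here.

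*Cd3d*, *Cd3e* and *Cd3g* lie together within 40019 bp of mouse chromosome 9 (mm9, 44777655 to 44817673), and 1361 bp separate *Cd3d* from *Cd3g*, which are transcribed away from each other. *Lck* has 2 start sites in the RefSeq promoter table. Its proximal promoter is known for its use in thymocytes and its distal promoter for its use in mature T cells. The 250 bases upstream of the starts of *Cd3d*, *Cd3e*, *Cd3g* and *Lck* are shown as a description, and their part in the fall of these genes was not tested. They are printed 5′ to 3′ on the strand of the gene, from RefSeq on GRCm38.p6, a later build than the mm9 used for the positions of genes. Capitals mark 6-base words known from the sites of ETS, RUNX, E-box, GATA and TCF/LEF proteins, searched on both strands and spelled out after the sequences.
*Cd3d*, chr9:44981536-44981785, plus strand: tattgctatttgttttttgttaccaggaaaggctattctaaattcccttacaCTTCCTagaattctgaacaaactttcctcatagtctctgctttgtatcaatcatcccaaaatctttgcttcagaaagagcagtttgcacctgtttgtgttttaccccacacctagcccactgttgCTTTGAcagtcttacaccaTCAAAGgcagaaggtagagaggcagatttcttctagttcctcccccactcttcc
*Cd3e*, chr9:45009612-45009861, minus strand: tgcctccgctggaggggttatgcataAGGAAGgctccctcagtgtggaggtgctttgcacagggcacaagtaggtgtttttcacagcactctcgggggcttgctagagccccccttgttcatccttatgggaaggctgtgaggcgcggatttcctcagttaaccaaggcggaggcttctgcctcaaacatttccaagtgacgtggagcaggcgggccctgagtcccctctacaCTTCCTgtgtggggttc
*Cd3g*, chr9:44980432-44980681, minus strand: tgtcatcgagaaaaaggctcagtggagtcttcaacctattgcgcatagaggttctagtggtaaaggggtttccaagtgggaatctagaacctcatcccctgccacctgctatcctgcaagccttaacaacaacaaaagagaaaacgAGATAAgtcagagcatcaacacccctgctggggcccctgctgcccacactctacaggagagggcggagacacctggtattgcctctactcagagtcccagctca
*Lck*, distal, chr4:129573642-129573891, minus strand: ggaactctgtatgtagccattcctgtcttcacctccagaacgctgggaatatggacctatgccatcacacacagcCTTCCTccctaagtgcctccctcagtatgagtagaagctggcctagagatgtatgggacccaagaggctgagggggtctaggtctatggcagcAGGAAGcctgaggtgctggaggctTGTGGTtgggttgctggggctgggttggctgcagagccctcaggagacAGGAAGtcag
*Lck*, proximal, chr4:129558373-129558622, minus strand: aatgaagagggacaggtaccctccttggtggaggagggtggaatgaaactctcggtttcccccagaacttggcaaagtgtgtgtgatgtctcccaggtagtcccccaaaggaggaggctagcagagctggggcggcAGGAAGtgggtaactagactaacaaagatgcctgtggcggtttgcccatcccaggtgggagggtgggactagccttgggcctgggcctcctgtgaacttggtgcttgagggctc

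The promoter table matched 7 of the 10 genes with 10 windows, and had no entry for *Cd4*, *Cd8b1* and *Cd28*. The ETS word, AGGAAG, was in 7 of these 10 windows and in 29.5% of all 32851 windows of 250 bases. It was in the windows of *Cd3d*, *Cd3e* and *Cd247*, in both windows of *Lck* and in 2 of the 3 windows of *Zap70*. The RUNX word, TGTGGT, was in 2 windows, against a share of 14.0% of all windows. The TCF/LEF word, CTTTGA, was also in 2 windows, against 13.8%. The GATA word, AGATAA, was in 1 window, that of *Cd3g*, against 9.99% of all windows. The E-box word, CAGCTG, was in 0 of the 10 windows, against 13.0%. No motif overlapped another in the windows shown, and a match is a description of the letters and not of a bound site.

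All 10 genes fell in the tumors, by a log2 fold change between -2.55 (*Zap70*) and -3.99 (*Cd28*) on the scale of log2(CPM + 0.5). The value of *Zap70* is set by the added 0.5 CPM, since its tumors held 2, 3 and 0 fragments, and it was -3.75 with 0.1 CPM added. *Cd4*, at -2.59, had the smallest fall among the other 9 genes. The median log2 fold change of all 10 genes was -3.10, where the median of all 15280 genes was -0.0028. Summed over the 10 genes, the level was 629, 267 and 466 CPM in glands M11035, M11640 and M9232, and 34.6, 35.5 and 54.2 CPM in tumors T11035, T11640 and T9232. Tumors and glands were compared with limma, and a gene was called at an FDR of at most 0.05 and a fold change of at least 2. All 10 genes were called lower, where 13.7% of all genes were called lower and 14.5% were called higher. In all 10 genes every tumor lay below every gland, which was so for 26.3% of all genes. All 10 were also called lower with the mouse as a block in limma (13.7% of all genes), with edgeR (14.6%) and with DESeq2 (14.4%). In bulk tissue, fewer T cells and less RNA per T cell cannot be told apart.

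**Figure D1:**
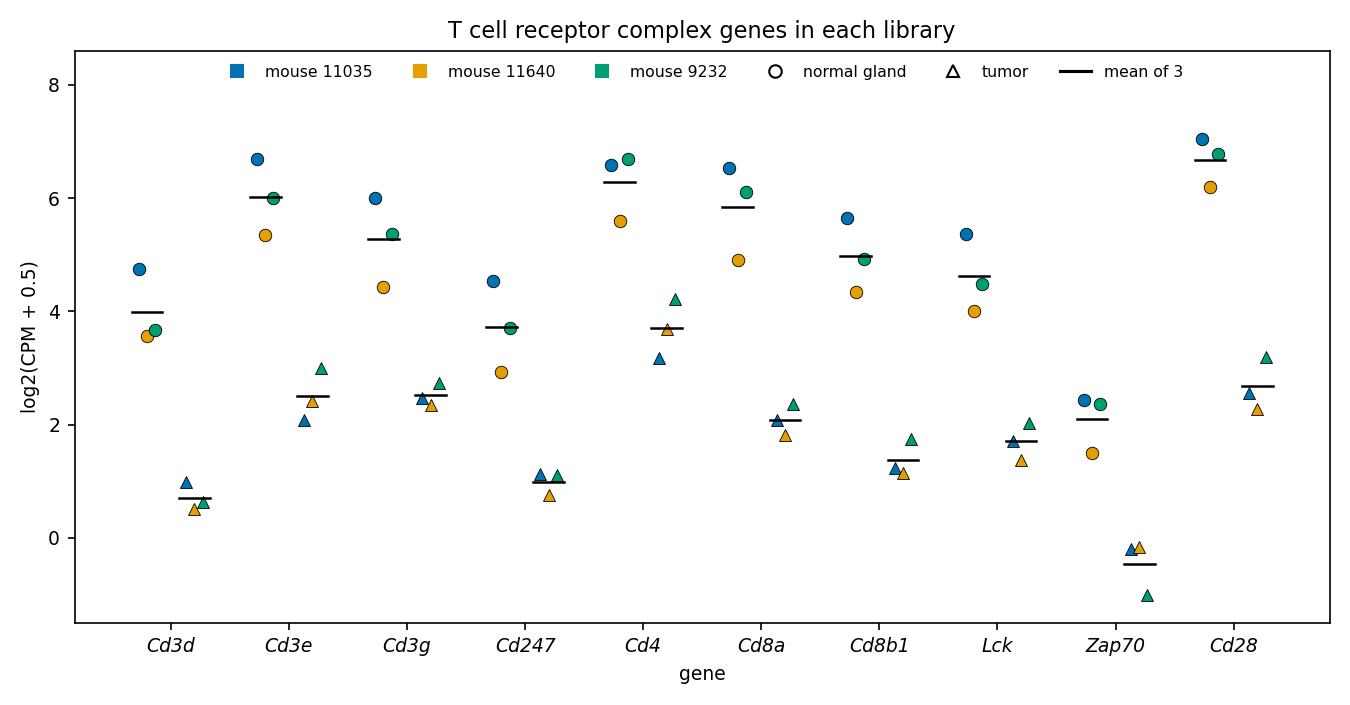
Level of each T cell receptor complex gene in the 6 libraries, as log2(CPM + 0.5). Circles are normal glands, triangles are tumors, colors are mice and bars are means of 3 libraries. In every gene the 3 triangles sit below the 3 circles, and gland M11640 is the lowest of the glands.

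The CD3δ gene *Cd3d* (chromosome 9, 44789876 to 44795135, mm9) had 26.2, 11.4 and 12.2 CPM in glands M11035, M11640 and M9232, against 1.49, 0.917 and 1.05 CPM in tumors T11035, T11640 and T9232. The tumor values rest on 8, 7 and 7 fragments. The mean fell from 16.6 ± 8.35 CPM (SD, n = 3) to 1.15 ± 0.299 CPM, which limma put at -3.28 ± 0.35 (SE) on the log2 scale, adjusted p = 0.000158.

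The CD3ε gene *Cd3e* (chromosome 9, 44806826 to 44817673, mm9) encodes the chain that pairs with both CD3δ and CD3γ. It had 103, 40.3 and 63.7 CPM in the glands and 3.72, 4.85 and 7.49 CPM in the tumors, in the same order of mice. The lowest gland was thus 5.38 times as high as the highest tumor. Its mean fell from 69.1 ± 31.8 to 5.35 ± 1.94 CPM, which limma put at -3.52 ± 0.36 (SE) on the log2 scale, adjusted p = 0.000123.

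The CD3γ gene *Cd3g* (chromosome 9, 44777655 to 44788514, mm9) had 63.4, 21.1 and 40.9 CPM in the glands and 5.02, 4.59 and 6.14 CPM in the tumors. The glands differed 3.00-fold among themselves, more than the tumors did. Mean *Cd3g* fell from 41.8 ± 21.2 to 5.25 ± 0.803 CPM, which limma put at -2.75 ± 0.36 (SE) on the log2 scale, adjusted p = 0.000483.

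*Cd247* (chromosome 1, 167718812 to 167807407, mm9) encodes CD3ζ, which forms the pair of long signaling tails of the receptor. It had 22.8, 7.10 and 12.6 CPM in the glands and 1.67, 1.18 and 1.65 CPM in the tumors, which rest on 9, 9 and 11 fragments. The groups did not overlap. Mean *Cd247* fell from 14.2 ± 7.95 to 1.50 ± 0.279 CPM, which limma put at -2.73 ± 0.40 (SE) on the log2 scale, adjusted p = 0.000817. The exons of *Cd247* overlap those of *Pou2f1* on the other strand over 2136 bp, and fragments there could come from either gene. *Pou2f1*, which encodes a widely expressed transcription factor, had 98.3 ± 10.4 CPM in the glands and 83.7 ± 4.67 CPM in the tumors (adjusted p = 0.235, limma). The exons of the other 9 genes overlapped no other gene of the table.

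The helper coreceptor gene *Cd4* (chromosome 6, 124814710 to 124838239, mm9) had 94.9, 47.6 and 103 CPM in glands M11035, M11640 and M9232, against 8.56, 12.5 and 18.1 CPM in their tumors. Gland M9232 was the highest here, whereas gland M11035 was the highest for the other 9 genes. Mean *Cd4* fell from 81.7 ± 29.8 CPM (SD, n = 3) to 13.0 ± 4.81 CPM, which limma put at -2.59 ± 0.35 (SE) on the log2 scale, adjusted p = 0.000536. Its lowest gland was 2.62 times as high as its highest tumor, the smallest such gap among the 10 genes. Some macrophages and dendritic cells also carry CD4, and the part of such cells in these values was not tested.

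*Cd8a* (chromosome 6, 71323421 to 71329165, mm9) and *Cd8b1* (chromosome 6, 71272830 to 71287471, mm9) are neighbors and encode the α and β chains of the cytotoxic coreceptor. *Cd8a* had 92.1, 29.6 and 68.0 CPM in the glands and 3.72, 3.01 and 4.65 CPM in the tumors. The mean fell from 63.2 ± 31.5 to 3.79 ± 0.818 CPM, which limma put at -3.76 ± 0.39 (SE) on the log2 scale, adjusted p = 0.000125. *Cd8b1*, which is carried by fewer kinds of cell than *Cd8a*, had 49.6, 19.8 and 30.0 CPM in the glands and 1.86, 1.70 and 2.85 CPM in the tumors. Its mean fell from 33.1 ± 15.1 to 2.14 ± 0.620 CPM, which limma put at -3.60 ± 0.35 (SE) on the log2 scale, adjusted p = 8.51e-05. For both chains gland M11035 was the highest and gland M11640 the lowest, and the tumors lay within 2-fold of each other.

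*Lck* (chromosome 4, 129225588 to 129250885, mm9), the kinase that starts the signal, had 40.7, 15.5 and 21.9 CPM in the glands and 2.79, 2.10 and 3.596 CPM in the tumors. The mean fell from 26.0 ± 13.1 to 2.83 ± 0.750 CPM, which limma put at -2.91 ± 0.36 (SE) on the log2 scale, adjusted p = 0.000330. Fragments were counted per gene, so use of the distal and the proximal start of *Lck* was not measured. *Zap70* (chromosome 1, 36818695 to 36839663, mm9), the kinase that docks on the phosphorylated chains, was the least abundant of the 10. It had 4.88, 2.31 and 4.65 CPM in the glands and 0.372, 0.393 and 0 CPM in the tumors, or 24, 14 and 34 fragments against 2, 3 and 0. All 3 tumors were thus at or under the floor of 3 fragments. Over the pooled fragments *Zap70* was 15.5-fold lower in the tumors, with an exact 95% interval of 6.34 to 49.2 that covers counting error only. By limma its log2 fold change was -2.55 ± 0.41 (SE, adjusted p = 0.00138).

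*Cd28* (chromosome 1, 60773644 to 60830203, mm9) encodes the receptor whose signal a naive T cell needs beside that of the T cell receptor. It had 131, 72.3 and 109.8 CPM in the glands and 5.40, 4.32 and 8.69 CPM in the tumors. Its glands differed least among themselves, by 1.81-fold, and its lowest gland was 8.32 times as high as its highest tumor. Mean *Cd28* fell from 104 ± 29.6 to 6.14 ± 2.28 CPM, which limma put at -3.99 ± 0.30 (SE) on the log2 scale, adjusted p = 2.29e-05.

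The order of the glands was much the same in the 10 genes, and that of the tumors was less so. Gland M11035 held the highest value of the glands in 9 genes and gland M11640 the lowest in all 10, and the highest gland exceeded the lowest between 1.81-fold and 3.21-fold. Among the tumors, T9232 was the highest in 7 genes and T11640 the lowest in 7. Some of these tumor ranks rest on few fragments, such as 8, 7 and 7 for *Cd3d*. Within each mouse all 10 genes were lower in the tumor, with median log2 changes of -3.70 for T11035 against M11035, -2.78 for T11640 against M11640 and -3.02 for T9232 against M9232. Without *Zap70*, whose tumor values are at the floor, single within-mouse values ran from -1.89 (*Cd4*, T11640) to -4.62 (*Cd3e*, T11035). Over all 10 genes, T11035 held the largest fall in 9 of the 10 genes.

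**Figure D2:**
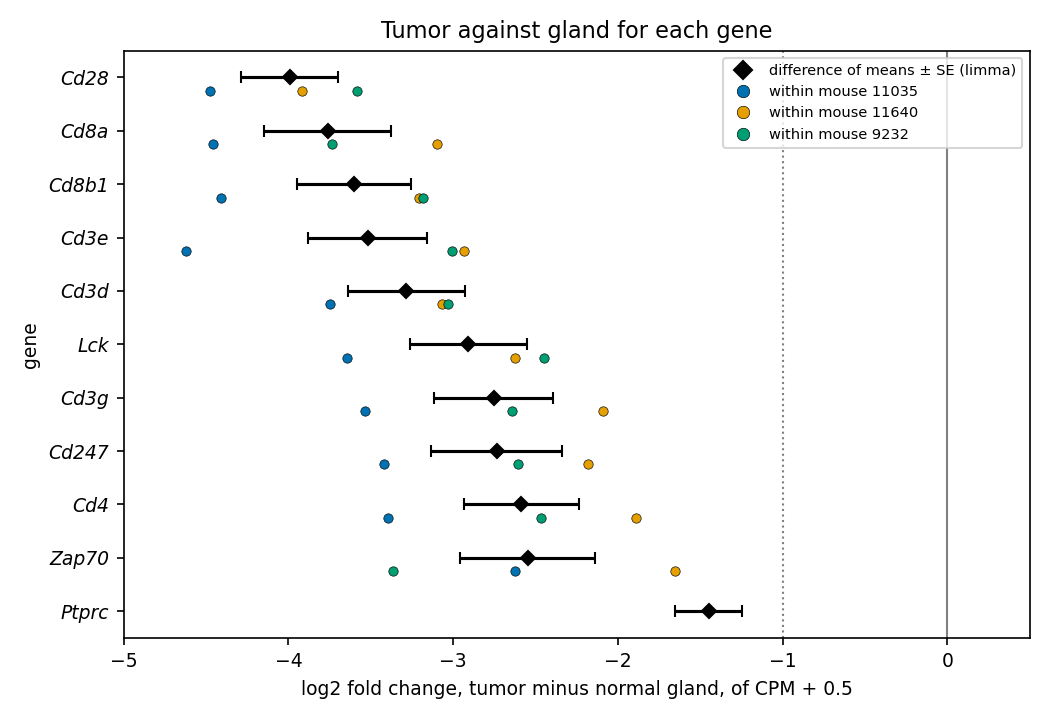
Log2 fold change of each gene, tumor minus normal gland, on the scale of log2(CPM + 0.5). Diamonds with bars are limma estimates ± standard error from 3 against 3 libraries, small circles are the differences within each mouse, the dotted line is the 2-fold threshold and the solid grey line is the median of all genes. Every gene lies to the left of *Ptprc*, from -3.99 for *Cd28* to -2.55 for *Zap70*, whose value depends on the added 0.5 CPM.

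To rank the 10 genes against each other, levels were taken per length, as CPM per kb of exon in the mm9 annotation. On this scale the mean level in the glands was 48.1 ± 22.2 for *Cd3e* (SD, n = 3), 39.1 ± 19.8 for *Cd3g*, 23.4 ± 10.7 for *Cd8b1* and 20.3 ± 7.39 for *Cd4*. It was 20.2 ± 10.1 for *Cd8a*, 17.0 ± 4.83 for *Cd28*, 12.5 ± 6.31 for *Cd3d* and 8.89 ± 4.46 for *Lck*, and lowest for *Cd247* (2.63 ± 1.48) and *Zap70* (1.69 ± 0.610). *Cd3e* exceeded *Cd3g* per length in all 3 glands. The order among *Cd8b1*, *Cd4*, *Cd8a* and *Cd28* differed between glands, so these neighbors did not separate beyond their spread. In the tumors *Cd3g* was first per length (4.91 ± 0.750), followed by *Cd3e* (3.73 ± 1.35), *Cd4* (3.24 ± 1.19) and *Cd8b1* (1.51 ± 0.437). *Cd3g* exceeded *Cd3e* per length in all 3 tumors, the reverse of the glands. This rests on 27, 35 and 41 fragments of *Cd3g* against 20, 37 and 50 of *Cd3e* in T11035, T11640 and T9232. It also depends on the exon lengths of 1070 and 1436 bp, since by CPM *Cd3e* was the higher in T11640 and T9232. *Cd8a* (1.21 ± 0.261), *Cd28* (1.003 ± 0.372), *Lck* (0.966 ± 0.256) and *Cd3d* (0.870 ± 0.226) followed, and the order among *Cd28*, *Lck* and *Cd3d* was not the same in all tumors. *Cd247* (0.279 ± 0.0519) and *Zap70* (0.109 ± 0.0949) were again the lowest. The 5372 bp of *Cd247* include the 2136 bp that overlap *Pou2f1*, so its level per length is less certain in both tissues.

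The balance of the coreceptor transcripts was compared as the ratio of *Cd8a* to *Cd4* CPM within a library. This ratio and those below take no account of gene length, so they compare libraries and do not rank the genes. The ratio was 0.970, 0.622 and 0.663 in glands M11035, M11640 and M9232, against 0.435, 0.242 and 0.256 in their tumors. Each tumor was lower than each gland. The mean log2 ratio was -0.44 ± 0.35 (SD, n = 3) in the glands and -1.74 ± 0.47 in the tumors, a difference of -1.30 (exact permutation test, two-sided, p = 0.1). This is the smallest p that this exact test can give with 3 against 3 libraries, so it cannot reach 0.05. Within mice the difference was -1.16, -1.36 and -1.37 for T11035, T11640 and T9232 against their own glands. Cells other than T cells also carry *Cd4*, among them some macrophages and dendritic cells. *Cd8a*, too, is carried by more kinds of cell than *Cd8b1*. The part of other cells in either side of the ratio was not tested.

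The CD3 chains were also set against *Ptprc*, which encodes CD45, a phosphatase on the surface of all leukocytes. *Ptprc* itself had 1695, 970.4 and 1332 CPM in the glands and 427, 493 and 511 CPM in the tumors, which limma put at -1.45 ± 0.20 (SE) on the log2 scale, adjusted p = 0.000686. The summed CPM of *Cd3d*, *Cd3e*, *Cd3g* and *Cd247* was 0.127, 0.0824 and 0.0971 times that of *Ptprc* in the glands and 0.0279, 0.0234 and 0.0320 times in the tumors. All 3 tumors were below all 3 glands, with a log2 difference of -1.87 (exact permutation test, two-sided, p = 0.1). Against the summed CPM of 12 B cell markers, the CD3 sum was 0.190, 0.170 and 0.176 in the glands and 0.460, 0.406 and 0.583 in the tumors. Here all 3 tumors were above all 3 glands, with a log2 difference of 1.42 (exact permutation test, two-sided, p = 0.1).

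**Figure D3:**
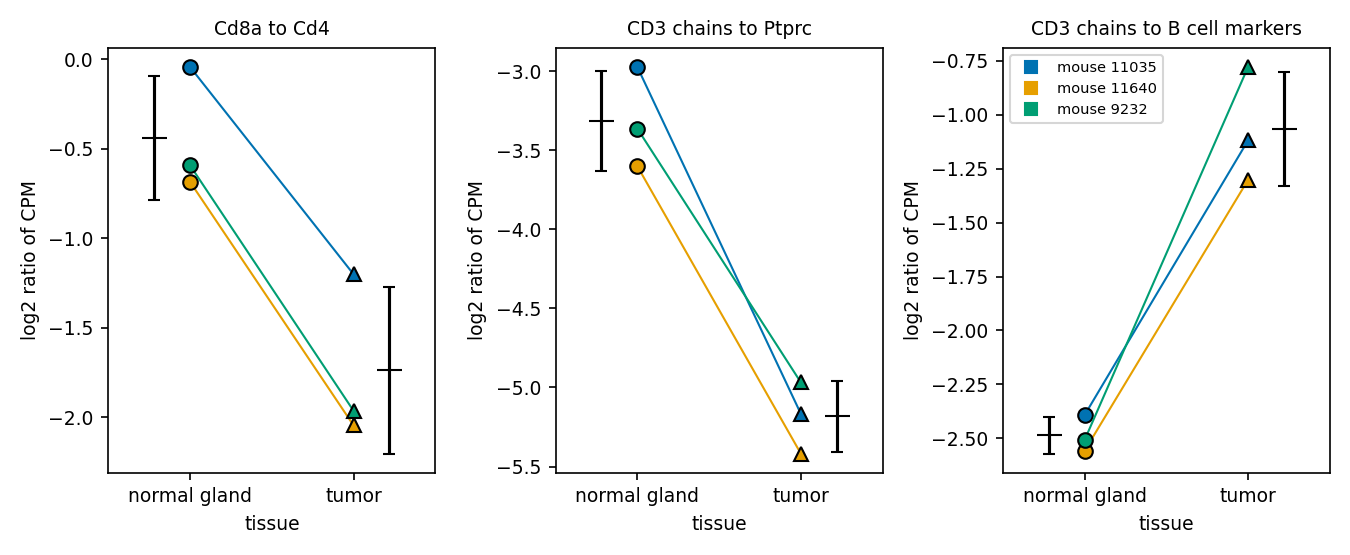
Log2 ratios of CPM within each library, for *Cd8a* to *Cd4*, for the summed CD3 chains to *Ptprc* and for the summed CD3 chains to the summed B cell markers. Circles are normal glands, triangles are tumors, lines join the libraries of a mouse and bars are means ± SD of 3. The first and second ratios are lower in every tumor (differences of -1.30 and -1.87), and the third is higher in every tumor (1.42).

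Of 25 signaling genes of T cells, among them adaptors, kinases and *Ptprc*, 19 were called lower and 0 were called higher, with a median log2 fold change of -1.93. Of all genes, 13.7% were called lower and 14.5% higher, and the counts of each list below stand beside these shares. *Themis*, which encodes an adaptor of T cells and thymocytes, had the largest fall on this list among genes averaging 1 CPM or more, from 69.4 ± 35.3 to 2.80 ± 1.12 CPM (limma, log2 -4.34, adjusted p = 4.91e-05). The 6 genes that were not called, named after their values were seen, were *Csk*, *Vav1*, *Plcg1*, *Sla*, *Nfatc1* and *Nfatc2*. *Sla*, *Nfatc1* and *Nfatc2* missed the fold threshold alone, with log2 values of -0.99, -0.67 and -0.71 and adjusted p of 0.00348, 0.0406 and 0.0212 (limma). *Plcg1*, a phospholipase found in most tissues, had 48.7 ± 13.3 CPM in the glands and 42.6 ± 1.06 CPM in the tumors (limma, log2 -0.16, adjusted p = 0.558).

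Of 22 surface, costimulatory and inhibitory receptors, 16 were called lower and 1 was called higher, with a median of -1.71. *Btla*, an inhibitory receptor of B and T cells, fell from 178 ± 48.8 to 9.88 ± 0.403 CPM (limma, log2 -4.07, adjusted p = 5.04e-06). *Tnfrsf9*, which encodes the activation receptor 4-1BB, was the one that rose, from 4.604 ± 1.11 to 35.5 ± 4.39 CPM (limma, log2 2.83, adjusted p = 3.26e-05). Its values were 5.69, 3.47 and 4.65 CPM in the glands and 33.7, 32.2 and 40.5 CPM in the tumors, so the groups did not overlap in the opposite direction to the receptor genes. In the same tumors *Cd3e* had 3.72, 4.85 and 7.49 CPM, without regard to gene length. Which cells carried *Tnfrsf9* was not tested.

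Of the 7 ligands of CD28 family receptors, 1 was called lower and 2 were called higher, with a median of -0.0048. The 1 called lower is near the share of all genes, 13.7%. The 2 called higher stand beside a share of 14.5%, and a list of 7 genes is too short to separate them from it. *Cd80*, a ligand of CD28 itself that was named after its values were seen, had 6.10, 3.30 and 7.52 CPM in the glands and 11.0, 14.8 and 21.4 CPM in the tumors (limma, log2 1.42, adjusted p = 0.0108). *Cd276*, which encodes B7-H3, rose from 6.42 ± 2.10 to 51.2 ± 5.86 CPM (limma, log2 2.94, adjusted p = 5.33e-05). *Icosl*, the ligand of ICOS, fell from 27.8 ± 12.0 to 9.92 ± 1.94 CPM (limma, log2 -1.38, adjusted p = 0.00618).

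Of 15 transcription factors of T cells, 9 were called lower and 0 higher, with a median of -1.34. *Ikzf3*, which encodes the lymphocyte factor Aiolos, fell from 152 ± 69.8 to 6.81 ± 1.92 CPM (limma, log2 -4.30, adjusted p = 3.78e-05). *Gata3*, which luminal epithelium also uses, had 29.4 ± 3.601 CPM in the glands and 49.9 ± 22.5 CPM in the tumors (limma, log2 0.66, adjusted p = 0.131). Of 17 genes of lymphocyte homing and lymph node stroma, 12 were in the table, and of these 8 were called lower and 1 was called higher. *Cxcr5*, the receptor that guides B cells and helper T cells to follicles, fell from 7.37 ± 3.49 to 0.549 ± 0.190 CPM (limma, log2 -2.82, adjusted p = 0.000692). *Tnfsf11*, which encodes RANKL, was the one called higher (limma, log2 1.39, adjusted p = 0.0145), and kept its call in 14 of 18 alternative settings.

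Other cell types of the tissue were measured beside the receptor genes. All 12 B cell markers were called lower, with a median of -4.48, and their sum was 1133, 471 and 736 CPM in glands M11035, M11640 and M9232 and between 25.9 and 28.4 CPM in the tumors. The B cell sum thus ranked the glands as the receptor genes did, and its part in their values was not tested. *Ms4a1*, which encodes CD20, fell from 136 ± 51.1 to 1.43 ± 0.476 CPM (limma, log2 -6.10, adjusted p = 5.43e-06). *Fcrla*, an Fc receptor-like gene of B cells, had the smallest fall of the 12, from 14.5 ± 5.97 to 2.62 ± 0.706 CPM (limma, log2 -2.22, adjusted p = 0.000815). Of 16 cytotoxic and NK cell genes, 14 were in the table, and of these 12 were called lower and 0 higher, and their sum was 112 to 177 CPM in the glands and 21.4 to 41.5 CPM in the tumors. *Ccl5*, a chemokine of activated T and NK cells, fell from 32.1 ± 15.4 to 2.16 ± 1.60 CPM (limma, log2 -3.69, adjusted p = 0.000543). *Gzmb*, which encodes granzyme B, had 3.77 ± 2.92 and 4.25 ± 2.57 CPM (adjusted p = 0.718, limma).

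Of 12 macrophage markers, 1 was called lower and 2 were called higher, near the shares of all genes (13.7% and 14.5%), with a median of 0.61. Their sum was 1143 to 4051 CPM in the glands and 1429 to 2711 CPM in the tumors, so the groups overlapped, and gland M11035, the highest in the receptor genes, was the lowest here. *Fcgr1*, a receptor for IgG, rose most among these (limma, log2 2.88, adjusted p = 0.000688). *Cd163*, a scavenger receptor, was the one called lower, from 54.3 ± 49.0 to 8.44 ± 4.74 CPM (limma, log2 -2.28, adjusted p = 0.0309), and kept its call in 12 of 18 alternative settings. Of 8 dendritic cell markers, 7 were called lower and 1 was called higher. *Clec9a*, a receptor of cross-presenting dendritic cells, fell from 44.2 ± 7.40 to 7.64 ± 2.16 CPM (limma, log2 -2.48, adjusted p = 9.27e-05). *Itgax*, which encodes CD11c and is shared with macrophages, was the one called higher, from 29.8 ± 15.4 to 59.7 ± 9.68 CPM (limma, log2 1.09, adjusted p = 0.0232), and kept its call in 11 of 18 settings. Of 8 genes of γδ and innate-like T cells, 5 were in the table, and 1 was called lower, which is near the share of all genes (13.7%). It was *Zbtb16*, which encodes the factor PLZF (33.0 ± 9.20 to 1.16 ± 0.576 CPM, limma, log2 -4.36, adjusted p = 3.09e-05). *Sox13*, a factor of some γδ T cells, had 2.04 ± 0.610 and 2.61 ± 0.642 CPM (limma, log2 0.30, adjusted p = 0.479).

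The labelled tissues were checked by their defining markers. All 5 adipocyte markers were called lower, and their sum was 2957 to 5970 CPM in the glands and 134 to 194 CPM in the tumors. *Adipoq*, which encodes adiponectin, had 413 ± 153 CPM in the glands and 2.94 ± 1.65 CPM in the tumors. *Fabp4*, a fatty acid carrier, fell least of the 5, from 3744 ± 1262 to 155 ± 28.1 CPM. Of 6 epithelial markers, 5 were called higher and 0 lower, and their sum was 209 to 464 CPM in the glands and 1954 to 2533 CPM in the tumors. *Krt14*, a basal keratin, rose from 11.5 ± 7.32 to 585 ± 129 CPM (limma, log2 5.75, adjusted p = 1.27e-05). *Epcam*, which encodes an epithelial adhesion protein, had 151 ± 65.7 and 211 ± 15.4 CPM (limma, log2 0.56, adjusted p = 0.124). The part of this shift in marker transcripts in the fall of the receptor genes was not tested.

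**Figure D4:**
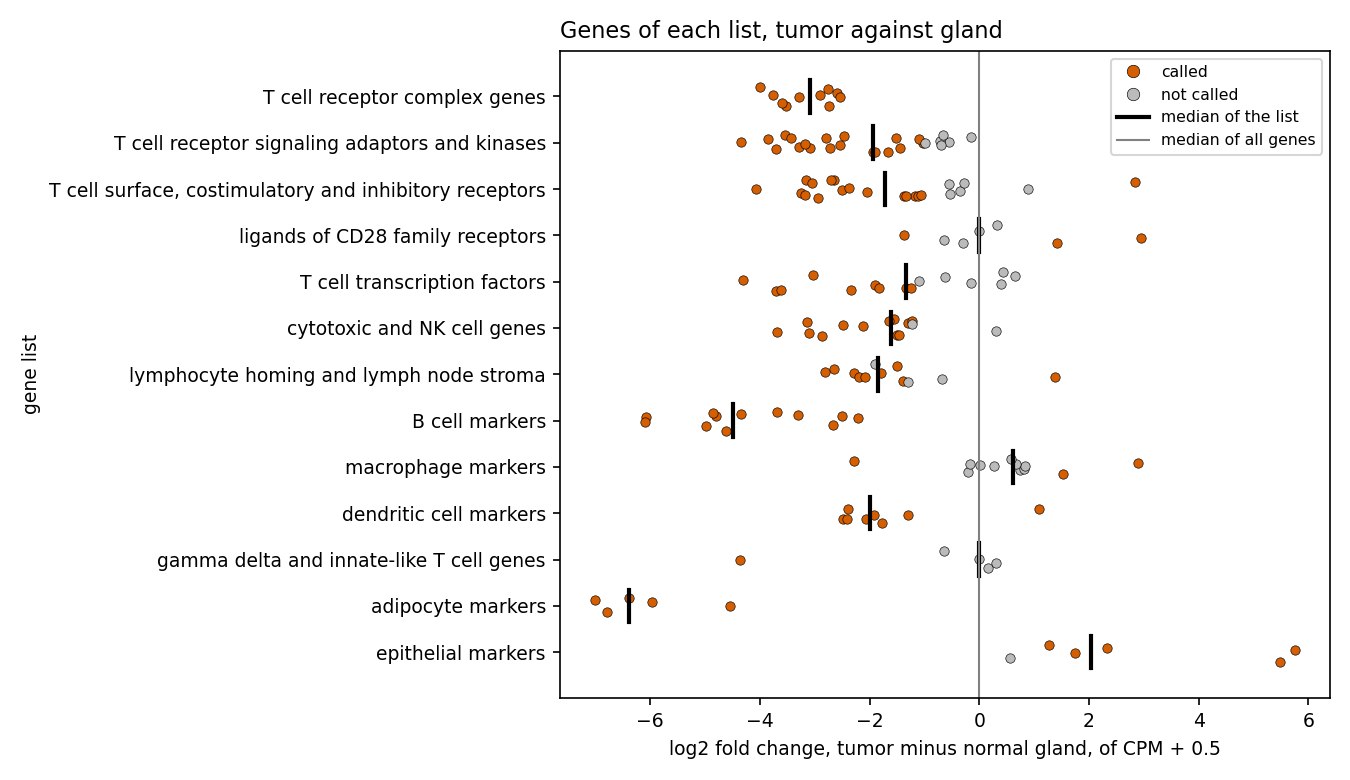
Log2 fold change, tumor minus normal gland, of every gene of each list, on the scale of log2(CPM + 0.5). Each circle is a gene, orange when it was called and grey when it was not, black bars are list medians and the grey line is the median of all genes. The 10 receptor complex genes sit between -3.99 and -2.55, to the right of most B cell markers (median -4.48) and to the left of the macrophage markers (median 0.61).

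The genes whose level over the 6 libraries was most like the mean log2 level of the 10 receptor genes were sought outside the lists, among the 11278 genes that averaged 5 CPM or more. The closest were *Inpp4b*, *Arhgap15*, *Fam196b*, *Stat4* and *Il16*, with Pearson's r between 0.998 and 0.999 over 6 libraries. These points fall into the 2 tissues, so r mostly reflects the step between them and is given as a description. *Stat4*, a transducer of interleukin-12 signals, had 67.7, 31.1 and 49.7 CPM in glands M11035, M11640 and M9232 and 8.001, 7.99 and 10.6 CPM in the tumors, with the same order among the glands as most receptor genes.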

How the data were processed

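RNA-Seq data of the 6 libraries were used, 3 of tumor and 3 of adjacent normal gland, grouped by the tissue type in the labels. According to the methods of the study, libraries were made from total RNA with the Ovation RNA-Seq System V2 and sequenced in 1 lane. Per the submitters' notes and methods, the authors used TopHat2 2.0.3 (mm9), HTSeq 0.5.3p9 on RefSeq genes and edgeR 3.6.1, and removed genes below 10 fragments in total. The authors deposited a signal, the fragments of a gene scaled to the effective library size (CPM). Within a tolerance of 0.001, 100% of values were whole multiples of 1 step per library, so counts of fragments behind the deposited signal were recovered. A floor of 3 fragments equals 0.393 to 0.610 CPM, for counting error only.

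Here log2(CPM + 0.5) of all 15280 genes was fitted with limma 3.58.1 (R 4.3.3, trended prior variance, no block, two-sided, Benjamini-Hochberg). The unit was planned as CPM and recorded as a signal, since the columns do not sum to the CPM total. Alternatives included edgeR 4.0.16 and DESeq2 1.42.0 on the recovered counts. Tumor and gland with the same number were taken from 1 animal, and the numbers therefore pair them. Over 14712 genes, deviations from the tissue means correlated with r = 0.107 (T11035 and M11035), 0.151 (T11640 and M11640) and 0.0168 (T9232 and M9232). Libraries of a tissue differed beyond sampling noise (chi-square per degree of freedom of at least 13.0). Positions and exon lengths came from GENCODE vM1 (mm9). BLAST 2.17.0 was run at 95% identity over 200 bp, and only *Cd247* shared such sequence with another gene, *Pou2f1*.

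The members and lists were chosen with earlier results of these data known. Besides the members and *Ptprc*, the genes named are those with the highest and the lowest log2 fold change on each list, among those averaging 1 CPM or more, and the 5 genes most like the members. The text says where a gene was chosen otherwise. The 3 libraries of a tissue came from 3 different mice.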

Additional observations from a re-analysis of the deposited data

How the results depend on the processing

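All 10 genes kept their direction and their call in each of the 18 alternative settings, 180 values in all, with log2 fold changes from -1.95 to -4.25 and adjusted p of at most 0.0157 (limma, edgeR or DESeq2). The settings were pseudocounts of 0.1 and 1, a filter at a mean of 1 CPM, total-count scaling, DESeq2 size factors, edgeR, DESeq2, the block in limma and in edgeR, and leaving out each library and each mouse. With the mouse as a replicate block, 10 genes were called in limma and in edgeR, and the block changed no call of the 10 genes. Of 81 genes on the pathway lists, 57 were called (53 lower, 4 higher). The count was 58 with the block, and ran from 45 to 62 when a library or a mouse was left out. The ratio differences kept their sign in every setting run, and the exact tests used for them cannot give a p below 0.05 with these numbers of libraries. In the replicate block (exact sign-flip test, where p cannot go below 0.25) they were -1.30, -1.87 and 1.42. Leaving out 1 library, the *Cd8a* to *Cd4* difference ran from -1.56 to -1.10, that of CD3 to *Ptprc* from -2.01 to -1.70 and that of CD3 to B cell markers from 1.28 to 1.54. Depth limits the tumor values of *Zap70*, *Cd3d* and *Cd247*, which rest on 5, 22 and 29 fragments over 3 libraries.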

Other observations

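Genes of regulatory and activated T cells were read off the lists after their values had been seen, and no test was made of how they differ from the receptor genes. *Foxp3*, the defining factor of regulatory T cells, had 9.96, 4.29 and 11.5 CPM in glands M11035, M11640 and M9232, against 3.35, 2.36 and 5.09 CPM in their tumors. The groups overlapped, and *Foxp3* was not called (limma, log2 -1.10, adjusted p = 0.0575). *Ctla4*, an inhibitory receptor abundant in regulatory T cells, had 33.0 ± 14.2 CPM (SD, n = 3) in the glands and 13.6 ± 1.95 CPM in the tumors (limma, log2 -1.17, adjusted p = 0.0138) and kept its call in 14 of 18 alternative settings. *Il2ra*, the α chain of the interleukin-2 receptor, had 36.3 ± 9.41 and 29.3 ± 5.73 CPM (limma, log2 -0.28, adjusted p = 0.377). *Havcr2*, which encodes TIM-3 and is also carried by myeloid cells, had 32.6 ± 16.3 and 57.1 ± 12.3 CPM (limma, log2 0.89, adjusted p = 0.0518). *Icos*, *Tigit*, *Tnfrsf18* and *Il2rb*, on the same list as *Ctla4*, were called lower (limma, log2 -2.05, -1.37, -1.11 and -2.70). *Icos*, *Tigit* and *Il2rb* kept their call in 18 of 18 alternative settings, and *Tnfrsf18* in 13. That list of 22 genes held 16 called lower, 1 called higher and 5 not called.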
